A study of Mus musculus with 6 samples.

Results

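The interferon-stimulated genes examined here were Ifit1, Ifit3, Ifitm3, Stat2, Irf7, Irf9, Bst2, Isg15 and Oasl2. The set is defined by these names, and each gene had 1 row among the 16060 rows of the expression table. All 9 passed the filter on low values that 13321 rows passed. The table holds hippocampal RNA-seq of 6 adult male C57BL/6 mice, 1 library per mouse, with 3 mice in the control group and 3 in the methamphetamine (MA) group. Control mice were injected with saline. MA mice received MA at 5 mg/kg in week 1, 10 mg/kg in week 2 and 15 mg/kg in week 3, and both groups went through behavioral tests on day 22 before the tissue was taken. No transgene, deletion or second drug distinguished these groups. The values are deposited levels on a scale read as log2 of a length-normalized level plus 1, so a difference of 1 is a doubling for a well expressed gene and understates the change of a low one. Read totals are not in the table, so the depth behind each value is unknown.

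Type I interferons signal through a pair of receptor chains and the kinases Jak1 and Tyk2. These phosphorylate Stat2, which joins Irf9 in a complex called ISGF3, and ISGF3 binds the interferon-stimulated response element (ISRE) before many antiviral genes. Irf7 amplifies interferon production, while Isg15, Ifit1, Ifit3, Oasl2, Ifitm3 and Bst2 act against viruses in the cell. In the brain many of these genes are expressed at a low basal level and are induced in microglia, astrocytes, endothelium and neurons during infection or inflammation. The comparison of the MA and control libraries asks whether this set differed after 3 weeks of MA.

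The ISRE was searched as GAAANNGAAA on both strands, where the reverse complement is TTTCNNTTTC, in the 250 bases before each start site of the RefSeq promoter table (build GRCm38.p6). All 9 genes had a window. A match was present for 5 of them, Bst2, Ifit1, Ifit3, Isg15 and Stat2, and in 2.98% of all 32851 windows. The stretches around the matches are printed because ISGF3 binds elements of this kind, though binding was not measured here. They read 5′ to 3′ on the strand of the gene, with matches in capitals, and adjoining matches overlap.
Isg15, chr4:156200855-156200916, minus strand: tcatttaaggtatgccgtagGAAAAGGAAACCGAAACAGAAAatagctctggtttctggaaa
Ifit1, chr19:34640765-34640833, plus strand: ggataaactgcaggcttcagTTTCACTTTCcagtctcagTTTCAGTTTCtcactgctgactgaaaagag
Ifit3, chr19:34583353-34583436, plus strand: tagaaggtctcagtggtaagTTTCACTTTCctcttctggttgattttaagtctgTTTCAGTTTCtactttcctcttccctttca
Bst2, chr8:71537567-71537622, minus strand: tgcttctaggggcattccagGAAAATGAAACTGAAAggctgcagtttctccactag
Stat2, chr10:128270256-128270305, plus strand: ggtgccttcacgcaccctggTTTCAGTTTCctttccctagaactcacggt

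Isg15 had 3 overlapping matches, the nearest ending 56 bases before the start site, and Stat2 had 1 match at 212 bases. Bst2, Ifit1 and Ifit3 had 2 each. Ifitm3 had 2 matches after its start site and 0 before it. Irf7, Irf9 and Oasl2 had no match in these windows, which says only that these letters are not there. Of 40 other interferon-stimulated genes with a window, 18 had a match.

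Before the values of these genes, the libraries and their labels need a description. Arc and Fos, immediate early genes used as a reference, were lower in every library labelled MA than in every library labelled Control (log2 differences -1.80 and -1.61, limma adjusted p = 0.0181 and 0.0315). All directions below follow the column labels as deposited, and the match between columns and treatment is in doubt and was not tested. If the labels were exchanged, every direction below would be reversed. MA replicate 3 stood apart from the other libraries. It held the lowest value of 29.8% and the highest of 25.6% of the tested genes. All 9 hippocampal neuron markers on the list, among them Slc17a7 and Prox1, were expressed. Means were lower in MA for 8 of them and higher for Slc17a7, 0 past the adjusted threshold, while 52.7% of all tested genes were lower. Their summed back-transformed levels ran from 807.3 to 923.7 in the control libraries and from 805.5 to 925.2 in the MA libraries. Slc17a7 made up most of these sums. The 8 choroid plexus markers, with Ttr and Folr1 among them, were all higher in the libraries labelled MA, and 5 passed the adjusted threshold. Ttr made up most of their summed back-transformed level, and the other 7 summed to between 7.92 and 10.5 in the control libraries and between 35.1 and 55.8 in the MA libraries. The 7 tested blood genes, which were hemoglobin genes, Alas2, S100a8 and S100a9, had higher means in MA, 3 of them past the adjusted threshold, with sums of 1600 to 2026 and 3320 to 4380. S100a8 and S100a9 overlapped between the groups, with their lowest value in MA replicate 2 and their highest in MA replicate 3, while the T-cell gene Cd3e and the B-cell gene Cd79a stayed under the filter, at most 0.265 and 0.50 on the log2 scale. The 8 microglia markers summed to between 182 and 194 in the control libraries and between 183 and 193 in the MA libraries. The endothelial sums ran from 162 to 185 and from 178 to 224. Those of the 6 meningeal markers, all at higher means in MA, ran from 37.9 to 45.9 and from 80.4 to 105. Most of that rise came from Igf2 and Dcn, with back-transformed means of 25.8 and 6.7 in control and 64.6 and 18.7 in MA. Col1a1, Lum, Col1a2 and Slc6a13 overlapped between the groups, with log2 differences from 0.020 to 0.21. Of 6 astrocyte markers, 5 were at lower means in MA, 0 past the adjusted threshold, and Aldoc was higher. The log2 difference of Slc1a3, 1 of the 5, was -0.00012, and only the groups of Aqp4 did not overlap (limma adjusted p = 0.458). The astrocyte sums, mostly Aldoc, ran from 787.8 to 862.9 in the control libraries and from 733.8 to 931.8 in the MA libraries. In tissue libraries, fewer cells of a type and less RNA per cell cannot be told apart.

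After Benjamini-Hochberg adjustment of the limma p-values over all 13321 genes, none of the 9 interferon-stimulated genes fell below 0.05, while 0.263% of all tested genes did. Irf9 was the 1 gene with an unadjusted p-value under 0.05, and it was lower in the libraries labelled MA, as were 5.46% of all tested genes at that threshold. Irf9 was also the 1 gene whose groups did not overlap, and 10.2% of all tested genes lay lower in MA without overlap. The difference was below 0 for 7 of the 9 genes, and 52.7% of all tested genes were lower. The median log2 difference was -0.12 for the 9 genes and -0.010 for all tested genes. The median of the 9 genes became 0.0066 without MA replicate 2 and lay between -0.20 and -0.074 when any other single library was left out. It was -0.27 with limma's sample quality weights and -0.22 over the 3 genes left by a minimum mean level of 5. With those weights, Irf9 and Isg15 passed the adjusted threshold, but so did 4.40% of all tested genes. The weights were between 0.937 and 2.45 for 5 libraries and 0.194 for MA replicate 3.

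**Figure D1:**
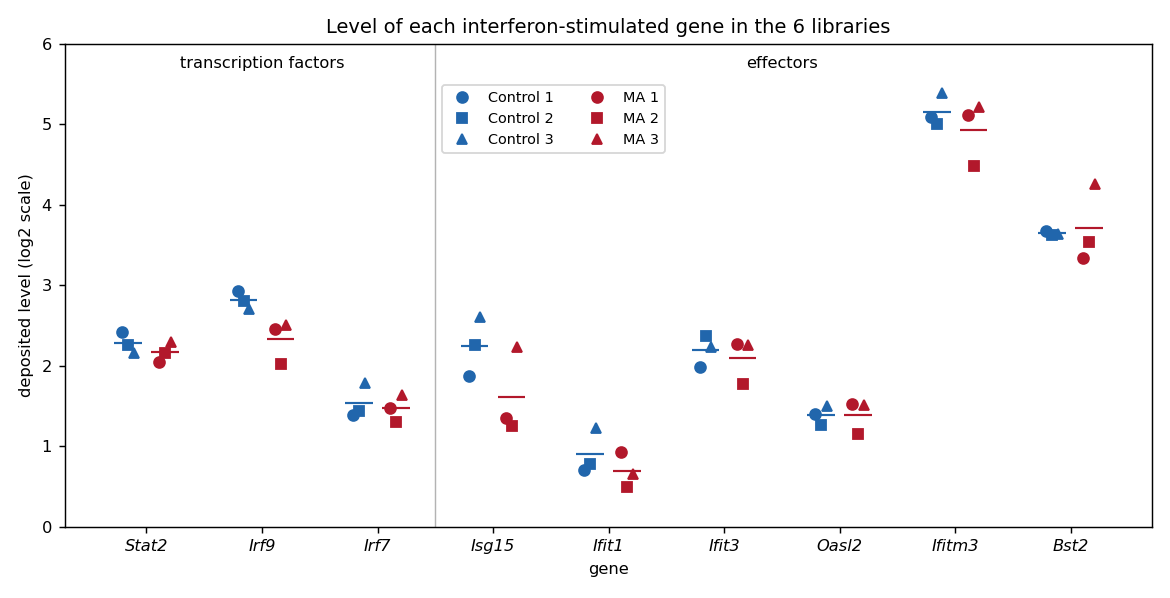
Deposited level on the log2 scale (vertical axis) of the 9 interferon-stimulated genes in the 3 control libraries (blue) and the 3 libraries labelled MA (red). Symbols mark the replicate number and short lines the group means. The groups are apart for Irf9 and overlap for the other genes, and Ifitm3 is the highest and Ifit1 the lowest in level.

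Irf9 (ENSMUSG00000002325), the DNA-binding subunit of ISGF3, spans bases 55603571 to 55610030 of chromosome 14 (build GRCm38, plus strand). Its level was 2.92, 2.81 and 2.71 in control replicates 1, 2 and 3 and 2.46, 2.03 and 2.50 in MA replicates 1, 2 and 3. Each MA library lay below each control library, with MA replicate 2 the lowest. The means were 2.81 ± 0.11 and 2.33 ± 0.26 (SD, n = 3 each), and the back-transformed mean levels were 6.04 and 4.08. The log2 difference was -0.48 (standard error 0.15, 95% interval from -0.83 to -0.14, limma p = 0.0126, adjusted p = 0.335, exact two-sided permutation p = 0.1). An exact p of 0.1 is the smallest that 3 libraries against 3 allow. Leaving out each library in turn kept the difference between -0.57 and -0.33. The first 123 bases of Irf9 overlap the end of Rnf31 on the same strand, so reads there could be assigned to either gene. Rnf31 had log2 levels of 2.72, 2.95 and 2.55 in the control libraries and 2.87, 3.39 and 3.06 in the MA libraries, a difference of 0.37 in the other direction (limma adjusted p = 0.487).

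Stat2 (ENSMUSG00000040033, chromosome 10, 128270559 to 128292849, plus strand) is the transactivating subunit of ISGF3. Its levels were 2.43, 2.26 and 2.17 in the control libraries and 2.04, 2.16 and 2.30 in the MA libraries, so the groups overlapped. The log2 difference was -0.12 (standard error 0.12, 95% interval from -0.39 to 0.16, limma adjusted p = 0.793). Irf9 thus had separate groups and Stat2 did not, and whether their differences were unequal was not tested.

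Irf7 (ENSMUSG00000025498, chromosome 7, 141262706 to 141266481, minus strand) was listed at 1.38, 1.44 and 1.79 in the control libraries and at 1.48, 1.30 and 1.64 in the MA libraries. The third library of each group was its highest. The log2 difference of -0.066 (standard error 0.15, 95% interval from -0.42 to 0.28, limma adjusted p = 0.921) was smaller than the spread within either group. Its last 45 bases overlap Phrf1 on the other strand. Neither the labels nor the methods say whether strand was used in counting, so reads from that stretch cannot be told apart. Without MA replicate 2 or without control replicate 3, the difference was positive, at 0.018 and 0.059.

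Isg15 (ENSMUSG00000035692, chromosome 4, 156199424 to 156200818, minus strand) encodes a ubiquitin-like protein that is conjugated to other proteins or secreted. Its log2 levels were 1.88, 2.26 and 2.60 in control replicates 1, 2 and 3, and 1.35, 1.26 and 2.24 in MA replicates 1, 2 and 3. MA replicates 1 and 2 lay below all control libraries, while MA replicate 3 lay above control replicate 1. The back-transformed means were 3.85 and 2.21, and the log2 difference of -0.63 was the largest in size of the 9 genes. It came with the largest standard error, 0.29, and a 95% interval from -1.31 to 0.046 (limma p = 0.0636, adjusted p = 0.509, exact two-sided permutation p = 0.2). Its SD of 0.36 in the control and 0.54 in the MA libraries exceeded that of 96.4% and 96.8% of all tested genes in the same group. Without MA replicate 3 the groups did not overlap and the difference was -0.95 (limma adjusted p = 0.0712). In that fit 22.1% of all tested genes were lower without overlap. Without control replicate 1 the Isg15 groups did not overlap either, at -0.82 (limma adjusted p = 0.764). The share of all tested genes without overlap was not counted for that fit. With sample quality weights the Isg15 difference was -0.93 (limma adjusted p = 0.0424).

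Ifit1, which binds foreign RNA and hinders its translation, and the related Ifit3 lie near each other on the plus strand of chromosome 19. Ifit3 (ENSMUSG00000074896) spans 34583531 to 34588731 and Ifit1 (ENSMUSG00000034459) 34640871 to 34650009. Ifit1 was the lowest of the 9 genes, with log2 levels of 0.71, 0.78 and 1.23 in the control and 0.93, 0.50 and 0.66 in the MA libraries. Only 4.52% of tested genes had a lower mean level. Its log2 difference was -0.21 (standard error 0.18, 95% interval from -0.63 to 0.21, limma adjusted p = 0.743) with overlapping groups. The highest value was that of control replicate 3, and without this library the difference was -0.049. Without MA replicate 1 the groups did not overlap, at -0.33 (limma adjusted p = 0.679). The share of all tested genes without overlap was not counted for that fit. The related Ifit1bl1, with which reads could be shared, had a difference of 0.19 (limma adjusted p = 0.675).

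Ifit3 was at 1.98, 2.37 and 2.24 in the control libraries and 2.27, 1.77 and 2.26 in the MA libraries. MA replicates 1 and 3 lay within the control range, and MA replicate 2 lay below it. The log2 difference was -0.095 (standard error 0.17, 95% interval from -0.50 to 0.31, limma adjusted p = 0.902), and it was 0.070 without MA replicate 2. Ifit3b, a close copy of Ifit3 on chromosome 19 from 34607970 to 34613401, was at 0.99, 1.39 and 1.77 in the control and 1.50, 1.12 and 1.37 in the MA libraries. Reads could be split between the copies, so both values are uncertain.

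Oasl2 (ENSMUSG00000029561, chromosome 5, 114896936 to 114912234, plus strand) belongs to the oligoadenylate synthetase family that responds to double-stranded RNA. Its levels of 1.40, 1.27 and 1.50 in the control libraries and 1.52, 1.15 and 1.51 in the MA libraries gave the smallest difference of the 9 genes in size. The log2 difference was 0.0034 with a 95% interval from -0.32 to 0.33 (limma adjusted p = 0.997). A rise as large as the falls of Arc and Fos lay outside this interval. A fall as large could not occur, since the control mean was 1.39 on a scale that ends at 0. The sign of the Oasl2 difference turned with both smaller pseudocounts, quantile normalization and sample quality weights. Without MA replicate 2 its groups did not overlap, with MA higher by 0.125 (limma adjusted p = 0.86). The share of all tested genes without overlap was not counted for that fit. Oasl1, a related gene, stayed under the filter, at most 0.28 on the log2 scale.

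Ifitm3 and Bst2, both membrane proteins, were the most abundant of the 9. Ifitm3 (ENSMUSG00000025492, chromosome 7, 141009586 to 141010770, minus strand), which hinders entry of viruses from endosomes, had log2 levels of 5.09, 5.003 and 5.39 in the control and 5.12, 4.48 and 5.21 in the MA libraries. These correspond to back-transformed means of 35.0 and 30.4. MA replicates 1 and 3 were within the control range and MA replicate 2 was below it. The log2 difference was -0.22 (standard error 0.20, 95% interval from -0.70 to 0.25, limma adjusted p = 0.758), and 0.0066 without MA replicate 2. The related Ifitm2 and Ifitm1 had differences of 0.098 and 0.17 (limma adjusted p = 0.904 and 0.881), and reads could be shared among these similar genes.

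Bst2 (ENSMUSG00000046718, chromosome 8, 71534255 to 71537456, minus strand), or tetherin, holds budding virus at the cell surface. The control libraries were nearly alike at 3.67, 3.63 and 3.64, whereas the MA libraries were at 3.34, 3.54 and 4.26. MA replicates 1 and 2 lay below all control libraries and MA replicate 3 lay above them. Its SD was 0.022 in the control group, lower than in all but 3.94% of tested genes, and 0.49 in the MA group, higher than in 95.3%. The log2 difference was 0.068 (standard error 0.22, 95% interval from -0.45 to 0.58, limma adjusted p = 0.946), and without MA replicate 3 it was -0.21 (limma adjusted p = 0.217). Ttr was also highest in MA replicate 3, at a back-transformed level of 5033. Among the other 7 choroid plexus markers, Aqp1, Kcnj13, Otx2 and Slc4a5 were highest there too, and Clic6, Folr1 and Kl were highest in MA replicate 2. These 7 summed to 50.4 in MA replicate 3 and to 55.8 in MA replicate 2. The part of this tissue in the Bst2 level was not tested.

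**Figure D2:**
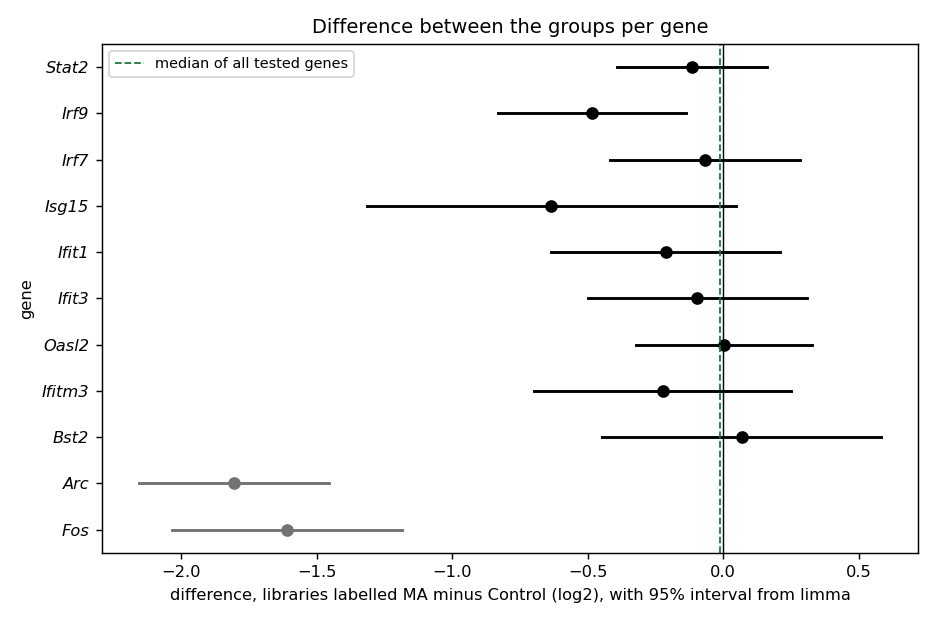
Log2 difference between the libraries labelled MA and Control (points) with its 95% interval from limma (bars) for the 9 genes in black and for Arc and Fos in grey. The dashed line is the median of all tested genes. The interval of Irf9, from -0.83 to -0.14, leaves out 0, and those of the other 8 genes include it.

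In order of mean level, Ifitm3 and Bst2 stood first and second in every library. Irf9 came next in 5 of the 6 libraries. In MA replicate 2 Stat2 lay above it. Stat2, Ifit3, Isg15, Irf7 and Oasl2 followed by mean level, and each changed places with its neighbour in at least 1 library. Irf9 lay above Ifit3 and Isg15 in all 6. Ifit1 was the lowest in each library. The order is on the log2 scale of a length-normalized level.

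Many of the 9 genes were low in the same library. MA replicate 2 held the lowest level of 7 genes, Ifit1, Ifit3, Ifitm3, Irf7, Irf9, Isg15 and Oasl2, against 15.7% of all tested genes. All 9 genes lay below their own mean there, by 0.35 on average on the log2 scale. Control replicate 3 held the highest level of 4 genes, Ifit1, Ifitm3, Irf7 and Isg15, against 12.5% of all tested genes, and the mean deviation there was 0.22. The mean deviation was 0.14 in MA replicate 3, -0.088 in MA replicate 1, and 0.018 and 0.056 in control replicates 1 and 2. On this measure MA replicates 1 and 2 lay below all control libraries and MA replicate 3 lay between control replicates 2 and 3. As the genes share each library, these deviations are not independent of each other.

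**Figure D3:**
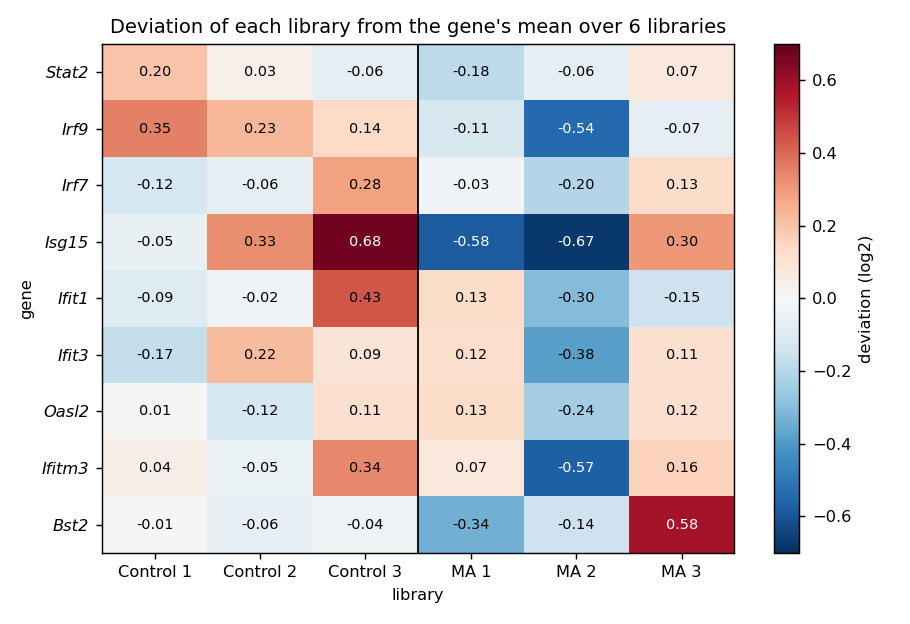
Deviation in log2 units of each library (columns) from the mean of the gene over 6 libraries (rows), printed in each cell and shown in red above and blue below the mean. All cells of MA replicate 2 are below 0, and MA replicate 3 is above 0 for 7 of the 9 genes.

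Isg15, Ifitm3 and Bst2 are short, with 756, 678 and 903 exonic bases in the annotation, and 370 tested genes have fewer than 1000. The median deviation of those short genes was -0.10 in both MA replicate 1 and MA replicate 2 and 0.16 in MA replicate 3, where Bst2 was highest. It was -0.026 in control replicate 3, the library where Isg15 and Ifitm3 were highest. A correction for exonic length was added after the data were seen. With it, the differences were -0.60 for Isg15, -0.19 for Ifitm3 and 0.092 for Bst2 (limma adjusted p = 0.405, 0.753 and 0.879). The unadjusted limma p of Isg15 was 0.0425 there, against 0.0636 in the reported fit, and 11.6% of all tested genes were under 0.05. Irf9, a longer gene with 5386 exonic bases, was then at -0.47 (limma adjusted p = 0.316). The part of exonic length in the levels of these genes was not tested.

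The tested genes outside the set with the nearest profile over the 6 libraries were Bex1, Btf3, Erh, Mrps24 and Nxt1. Nearness was the root mean square difference between standardised profiles, which was 0.11 for Bex1 and 0.16 for Nxt1, whereas the members themselves were between 0.27 for Ifitm3 and 1.08 for Stat2 from their mean profile. As they were chosen by these values, no test is given for them. Bex1, the nearest, was at 6.17, 6.19 and 6.24 in the control and 6.16, 6.04 and 6.23 in the MA libraries, so its libraries stood in the same order as the mean profile, over a narrower range.

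The other genes of the interferon pathway were described from a list of 103, of which 91 were in the table and 70 were tested. Of the 70, 43 were lower and 27 higher in the libraries labelled MA, and the median log2 difference was -0.043. None passed the adjusted threshold (limma). At an unadjusted p-value under 0.05, 2 were lower and 1 was higher, while 5.46% and 4.99% of all tested genes were lower and higher at that threshold. The groups did not overlap for 7 lower and 3 higher genes, while 10.2% and 7.32% of all tested genes were lower and higher without overlap. The 7 included Igtp and Gbp2, GTPases induced by interferon gamma, and Myd88, the adaptor of most Toll-like receptors (limma adjusted p between 0.478 and 0.65). Genes for the interferons themselves, 10 on the list, and Irf8 are not analysed here.

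Ifnar1 and Ifnar2, the chains of the type I receptor, had log2 differences of -0.020 and -0.00041, and Jak1 and Tyk2 had -0.048 and 0.049 (limma adjusted p between 0.937 and 0.999). Over the 8 tested genes of this role, the differences ran from -0.12 for Jak2 to 0.22 for Ifngr1, a chain of the type II receptor. All 5 tested transcription factors outside the set had differences below 0, the lowest being -0.20 for Irf2, and none passed the adjusted threshold. Among 12 sensors and adaptors, the lowest was Tlr7 at -0.33, where control replicate 2 alone was high, and the highest was Ddx58, a sensor of viral RNA, at 0.14. Tmem173, the adaptor of the cytosolic DNA response, was at 1.33, 1.30 and 1.03 in the control and 0.74, 0.96 and 0.97 in the MA libraries, a difference of -0.33 without overlap (limma adjusted p = 0.442).

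Uba7, Ube2l6 and Herc6 are the activating, conjugating and ligase enzymes of Isg15. They were 0.36, 0.26 and 0.28 higher in the libraries labelled MA, and Usp18, which removes Isg15, was at -0.15. None passed the threshold (limma adjusted p between 0.507 and 0.819). Ube2l6 had separate groups, with 2.54, 2.19 and 2.29 in the control and 2.63, 2.56 and 2.59 in the MA libraries. Of the negative regulators, Socs1 and Socs3 had differences of 0.029 and 0.15.

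Among 38 other tested interferon-stimulated genes, 24 were lower and 14 higher, and the median was -0.056. They ran from -0.52 for Xaf1 to 0.47 for Tor3a (limma adjusted p = 0.542 and 0.498). Slfn2, of the Schlafen family, was at 1.40, 1.19 and 1.39 in the control and 0.93, 0.74 and 0.94 in the MA libraries (difference -0.45, limma adjusted p = 0.257). Lgals3bp, a secreted galectin-binding protein, was at 3.20, 3.22 and 3.04 in the control and 3.44, 3.32 and 3.81 in the MA libraries (difference 0.37, limma adjusted p = 0.429). Several classical genes of the response were near the lowest value. Mx1 was at most 0.06 and Oas3 at most 0.13 on the log2 scale in any library, and Rsad2 and Cxcl10 stayed at or under 0.59 and 0.49. The MHC class I genes and their peptide supply, which interferon also induces, had a median of -0.030 over 11 tested genes, from -0.28 for Psme2 to 0.34 for Tap1 (limma adjusted p = 0.709 and 0.375).

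**Figure D4:**
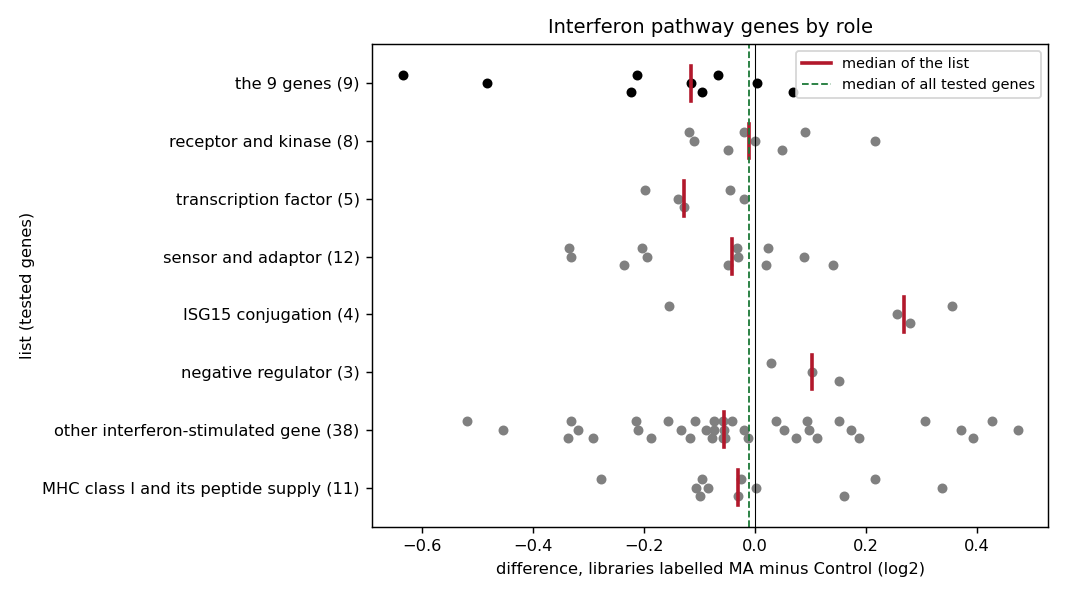
Log2 difference between the libraries labelled MA and Control (horizontal axis) for each tested gene of the interferon pathway, by list (vertical axis), with the 9 genes in black, list medians as red bars and the median of all tested genes as a dashed line. Points of most lists lie on both sides of 0, and the medians run from -0.13 for the transcription factors outside the set to 0.27 for the Isg15 enzymes.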

How the data were processed

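Hippocampal RNA of 3 control and 3 MA mice was sequenced as paired-end libraries. The study's methods name Hisat2, featureCounts and FPKM, whereas the submitters' processing notes name Bowtie 0.12.2 with mm8 and mm9, and the methods and labels also name different extraction and library kits. The authors deposited 1 table, named RPKM, whose values lie on a scale read as log2 with an offset of 1 and share 1 highest value of 12.3. The log transform and the normalization between libraries are not described in the sources used here. All 6 columns were matched to samples by title.

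Rows with a back-transformed level of at least 0.5 in at least 3 libraries were tested with limma 3.58.1 in R 4.3.3 (lmFit, eBayes with trend), MA against Control, with Benjamini-Hochberg adjustment and a threshold of 0.05. The study used a count test, which these values do not allow. Single genes were also tested by an exact two-sided permutation test. The fit was tested on 10 simulated tables, each with 200 genes altered by 1 log2 unit. It recovered a median of 75.2% of them, and a median of 5.64% of its calls were false. The simulation gave all 6 libraries the same spread per gene, whereas MA replicate 3 had a quality weight of 0.194. Recovery of changes smaller than 1 log2 unit was not simulated. Nothing states that mice came from separate cages or batches. The limma p-values set each group difference against the spread between these 6 libraries, which eBayes moderates across genes. With 1 library per mouse, spread between mice and spread between library preparations cannot be told apart.

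The genes and lists were chosen with earlier results of these data known. Genes named besides the 9 were set by rule: Arc and Fos, near copies, fixed signaling genes, the highest and lowest difference in each role and the 5 nearest profiles. Genes with an unadjusted p-value under 0.05, separate groups, an overlap in position or levels near 0 were added after their values were seen. Positions are those of GENCODE M21 on GRCm38, matched by Ensembl identifier, since the authors' build was not certain.

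The alternatives were no filter, a minimum mean of 5, pseudocounts of 0.1 and 0.01, median centring, quantile normalization, no eBayes trend, sample quality weights, the replicate block and leaving out each library. A correction for exonic length (lowess, span 0.3) was added after the data were seen. One gene that the rule names is not reported here.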

Additional observations from a re-analysis of the deposited data

How the results depend on the processing

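A minimum mean of 5 kept only Irf9, Ifitm3 and Bst2 of the 9 genes. In the settings that kept them, Irf9, Isg15, Stat2 and Ifit1 did not change direction. Neither Irf9 nor Isg15 passed the adjusted threshold except with sample quality weights, and over those settings the limma adjusted p ran from 0.0401 to 0.79 and from 0.0424 to 0.799. The difference of Oasl2 turned to -0.00213 and -0.000985 with pseudocounts of 0.01 and 0.1, -0.0117 with quantile normalization and -0.104 with sample quality weights, which also gave Bst2 -0.117. Leaving out 1 library gave between -0.0597 and 0.125 for Oasl2, -0.206 and 0.254 for Bst2, -0.148 and 0.0588 for Irf7, -0.203 and 0.0703 for Ifit3, and -0.36 and 0.00656 for Ifitm3. The cause of these changes was not tested. The depth of the libraries is unknown, which limits what can be said of the low genes.

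Genes past the adjusted threshold, 35 in the reported fit, numbered 20 with a minimum mean of 5, 3 with no filter, 586 with sample quality weights and 15 with the replicate block, and between 0 and 257 when 1 library was left out, the 257 without MA replicate 3. Of the 9 genes, 2 passed it with sample quality weights and 0 in every leave-one-out fit. Those of the 9 past an unadjusted p-value under 0.05 numbered 3 with weights (26.3% of all tested genes passed), 2 with the replicate block (6.32%) or the exonic length correction (11.6%), chosen after seeing the data, and between 1 and 2 when 1 library was left out. Those whose groups did not overlap numbered between 1 and 4 when 1 library was left out. The 4 were Irf9, Isg15, Stat2 and Bst2 without MA replicate 3, where 22.1% of all tested genes were lower without overlap. That share was not counted for the other leave-one-out fits, and 2 libraries separate from 3 more easily than 3 from 3. The other pathway genes past an unadjusted p-value under 0.05 numbered 3 of 70 as reported (4.29%, against 10.4% of all tested genes). With a minimum mean of 5 they numbered 1 of 18 (5.56% against 9.87%). Without the eBayes trend they numbered 5 of 70 (7.14% against 10.7%). They numbered 6 of 91 with no filter (6.59% against 10%) and 14 of 70 with weights (20% against 26.3%). Between 2 and 10 of 70 passed when 1 library was left out. The 10 were without MA replicate 3 (14.3% against 23.3%). Without MA replicate 1, 8 passed (11.4% against 8.69%). Only there did the share of pathway genes exceed that of all tested genes.

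Groups share replicate numbers, but same-numbered libraries did not deviate together (r of -0.197, -0.242 and -0.337 across genes), so the numbers were not taken to pair the mice. With the replicate block, Isg15 had an unadjusted limma p of 0.00954 and an adjusted p of 0.564, and Irf9 had 0.0211 and 0.675.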
